A study of Mus musculus with 19 samples.

Results

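The genes described are Spi1, which encodes PU.1, and the interferon regulatory factor genes Irf1, Irf2, Irf3, Irf4, Irf5 and Irf8. These 7 genes, of 38391 features on the array, were found by matching the RefSeq accession of each probe to the gene symbol. They held 8 probes, and a gene with several was followed through the probe with the highest mean signal. RNA came from 7 sorted populations of the bone marrow of C57BL/6 mice aged 8 to 12 weeks, and no genotype or treatment set the groups apart. Each of 19 samples had 1 array. LSK cells (3 arrays) lack lineage markers, carry Kit and Sca-1, and include the stem cells and multipotent progenitors. Further down are 3 progenitors with Kit and without Sca-1, told apart by CD16/32 and CD34. The gate for common myeloid progenitors (CMP, n = 3) is CD34 high with CD16/32 low, that for megakaryocyte-erythroid progenitors (MEP, n = 3) takes cells low in both proteins, and that for granulocyte-macrophage progenitors (GMP, n = 2) takes cells high in both. Early erythroblasts (EE, n = 2) are Ter119+ cells of large size with high CD44, and late erythroblasts (LE, n = 3) Ter119+ cells of small size with mid CD44. Granulocytes (GR, n = 3) were taken as Gr1+ cells. The labels do not say whether the samples came from separate or pooled mice, so each p-value reflects the spread of these arrays, part of which may be technical.

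PU.1 is an ETS-family transcription factor that binds purine-rich DNA and is needed for the formation of granulocytes, macrophages and B cells. In progenitors it opposes Gata1, the erythroid and megakaryocytic factor. The interferon regulatory factors share a DNA-binding domain that recognises repeats of GAAA. Irf8 and Irf4 bind weakly on their own and are recruited by PU.1 to composite ETS-IRF elements, and Irf8 is known for steering progenitors towards monocytes and dendritic cells. Irf1 activates interferon-inducible genes and is itself induced by interferon, while Irf2 competes with Irf1 for the same sites and often represses. Irf3 and Irf5 are held in the cytoplasm and act when pathogen sensors lead to their phosphorylation.

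Upstream sequences are shown for Irf8, which rose from LSK to the myeloid progenitors, and for Irf1 and Irf2, which fell, because these windows held motif matches. They are the 250 bases before a RefSeq gene start (assembly GRCm38.p6), 5′ to 3′ on the gene's strand, which is the plus strand for each. The searched motifs, on both strands, were the PU.1 core GAGGAAGT, the ETS-IRF composite core GGAANNGAA, the interferon response core GAAANNGAA and the STAT site TTCNNNGAA. Capitals mark matches. The windows are those of Irf1 at chr11:53769764-53770013, Irf2 at chr8:46739495-46739744 and Irf8 at chr8:120736108-120736357.
Irf1: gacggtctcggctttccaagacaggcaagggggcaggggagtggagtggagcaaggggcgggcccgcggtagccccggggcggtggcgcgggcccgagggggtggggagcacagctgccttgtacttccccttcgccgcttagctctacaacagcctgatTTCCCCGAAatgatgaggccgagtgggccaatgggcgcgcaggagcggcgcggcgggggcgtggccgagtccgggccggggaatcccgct
Irf2: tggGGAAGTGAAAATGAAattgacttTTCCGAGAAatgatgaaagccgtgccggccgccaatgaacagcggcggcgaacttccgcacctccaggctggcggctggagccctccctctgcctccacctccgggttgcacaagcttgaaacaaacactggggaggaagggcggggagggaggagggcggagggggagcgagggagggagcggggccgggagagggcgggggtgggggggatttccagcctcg
Irf8: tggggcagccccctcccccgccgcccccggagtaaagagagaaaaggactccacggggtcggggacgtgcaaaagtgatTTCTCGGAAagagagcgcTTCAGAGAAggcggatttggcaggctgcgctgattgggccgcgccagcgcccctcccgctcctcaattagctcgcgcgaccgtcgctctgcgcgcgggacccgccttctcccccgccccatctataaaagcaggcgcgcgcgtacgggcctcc

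The Irf1 window held 1 STAT site, TTCCCCGAA, with its first base 90 bases before the start. The Irf8 window held 2 STAT sites, TTCTCGGAA at 171 and TTCAGAGAA at 153 bases before the start. In the Irf2 window, an ETS-IRF composite core at 247 (GGAAGTGAA) overlapped an interferon response core at 241 (GAAAATGAA), and a STAT site, TTCCGAGAA, followed at 224. RefSeq windows were found for 6 of the 7 genes and numbered 8, since Irf1 and Irf8 each have a further start. The other 5 windows, those further starts and the windows of Irf3, Irf4 and Irf5, held no match to any of the 4 motifs, and the PU.1 core was in none of the 8. Among 32851 windows of the same length, 2.44% held the PU.1 core, 6.99% the composite core, 7.13% the interferon response core and 7.02% the STAT site. A match is a run of letters and not evidence of binding.

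Levels are log2 signal relative to the 75th percentile of the same array, so they describe the composition of the RNA and not its amount per cell, and fewer cells of a type cannot be told apart from less RNA per cell. Erythroblast arrays were dimmer than the others, with a 75th percentile of 50 to 80.9 intensity units against 266 to 606, and 42.9% to 47.1% of spots well above background against 49.5% to 66.3%. Markers bore out the labels in part. Erythroblast markers summed (log2) to between 13.22 and 14.1 on EE and LE arrays and granulocyte markers to between 12.18 and 12.35 on GR arrays, the highest of the 7 populations. Granulocyte markers also reached 8.27 to 8.64 on LSK and 8.9 to 9.02 on LE arrays, against 5.02 to 5.91 on CMP arrays. On GR arrays, 10 of 10 macrophage markers and 8 of 8 B cell markers were well above background, with sums of 6.23 to 6.25 and 5.51 to 5.54. On GMP arrays these sums were 3.23 to 3.24 and 3.92 to 4.18. On GMP 1 and GMP 2, 8 and 6 of 10 macrophage markers were well above background. For B cells it was 3 and 4 of 8 markers. Ms4a1, Pax5, Ebf1, Siglec1 and Timd4 were not well above background on either GMP array. The part of these cells in the results below was not tested.

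**Figure D1:**
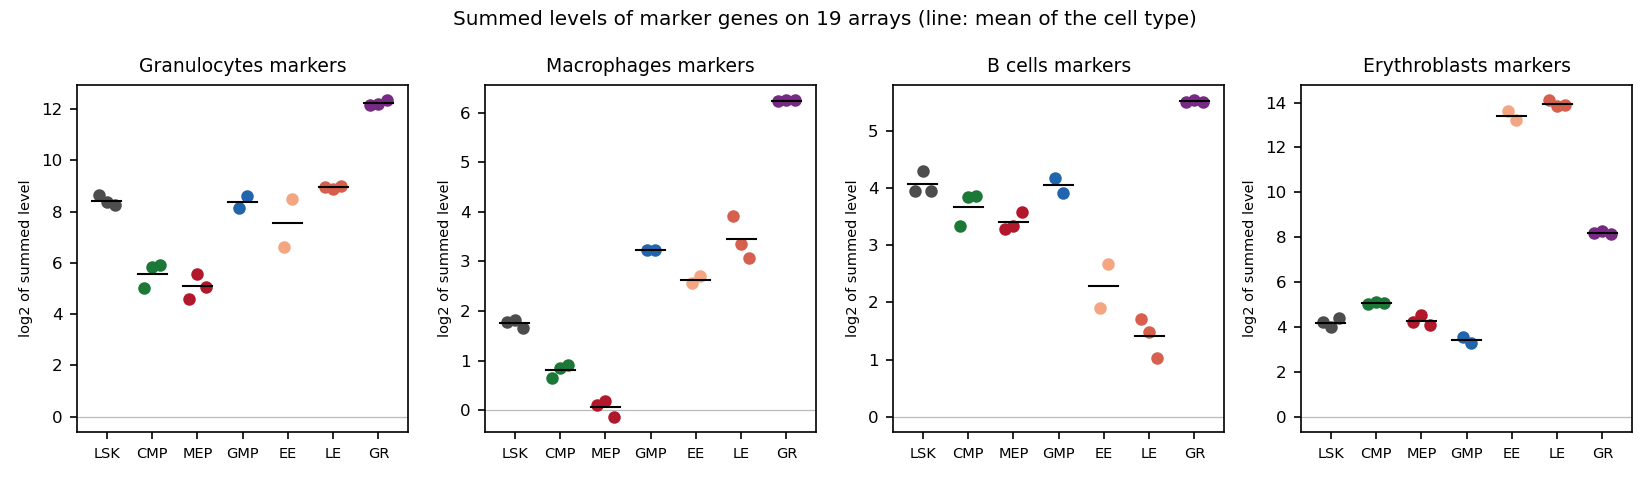
Summed level of marker genes (log2, y axis) on each of 19 arrays, by cell type (x axis), for granulocytes, macrophages, B cells and erythroblasts; points are arrays and lines are means. GR arrays had the highest macrophage and B cell sums, 6.23 to 6.25 and 5.51 to 5.54, and LSK arrays had granulocyte sums of 8.27 to 8.64.

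Spi1 was highest in granulocytes and GMP and not well above background in early erythroblasts. Its levels were 0.18, 0.11 and -0.70 in LSK, -0.68, -0.28 and 0.46 in CMP, and -0.99, -1.39 and -0.70 in MEP. They were 1.32 and 0.71 in GMP and 1.94, 1.82 and 1.94 in GR. LSK and CMP arrays overlapped, every GMP array lay above both, and every GR array lay above GMP. On EE arrays the spot read -4.77 and -4.31, not well above background on either. LE arrays disagreed: LE 1 and LE 3 were not well above background at -2.96 and -2.70 (6.41 and 7.72 intensity units), while LE 2 read 0.40 (76.2 units) with no outlier flag. This single spot widened the spread estimate of the gene, which all comparisons share.

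Spi1 was lower in MEP than in GMP, with a log2 difference of -2.04 ± 0.71 (SE, 3 against 2 arrays; limma adjusted p = 0.041), or 4.11-fold. The adjusted p was 0.00033 without LE 2, but the call was lost without CMP 2, any MEP, GMP or GR array (up to 0.22) and with quantile normalization (0.13). On the slide that held both, number 3, the difference was -2.10. In EE, Spi1 was at least 3.58-fold lower than in MEP (adjusted p = 0.00035), the bound set by the dimmest signals that count as well above background on EE arrays. GMP exceeded CMP by 1.18 ± 0.72 (adjusted p = 0.33) and LSK by 1.15 ± 0.72 (adjusted p = 0.22), and GR exceeded GMP by 0.89 ± 0.72 (adjusted p = 0.29), none past the threshold. Without LE 2 these adjusted p-values were 0.025, 0.013 and 0.032, with the same differences. CMP and LSK differed by -0.03 ± 0.64 (adjusted p = 0.98), with a sign that turned when LSK 1, LSK 2, CMP 1 or CMP 2 was left out.

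**Figure D2:**
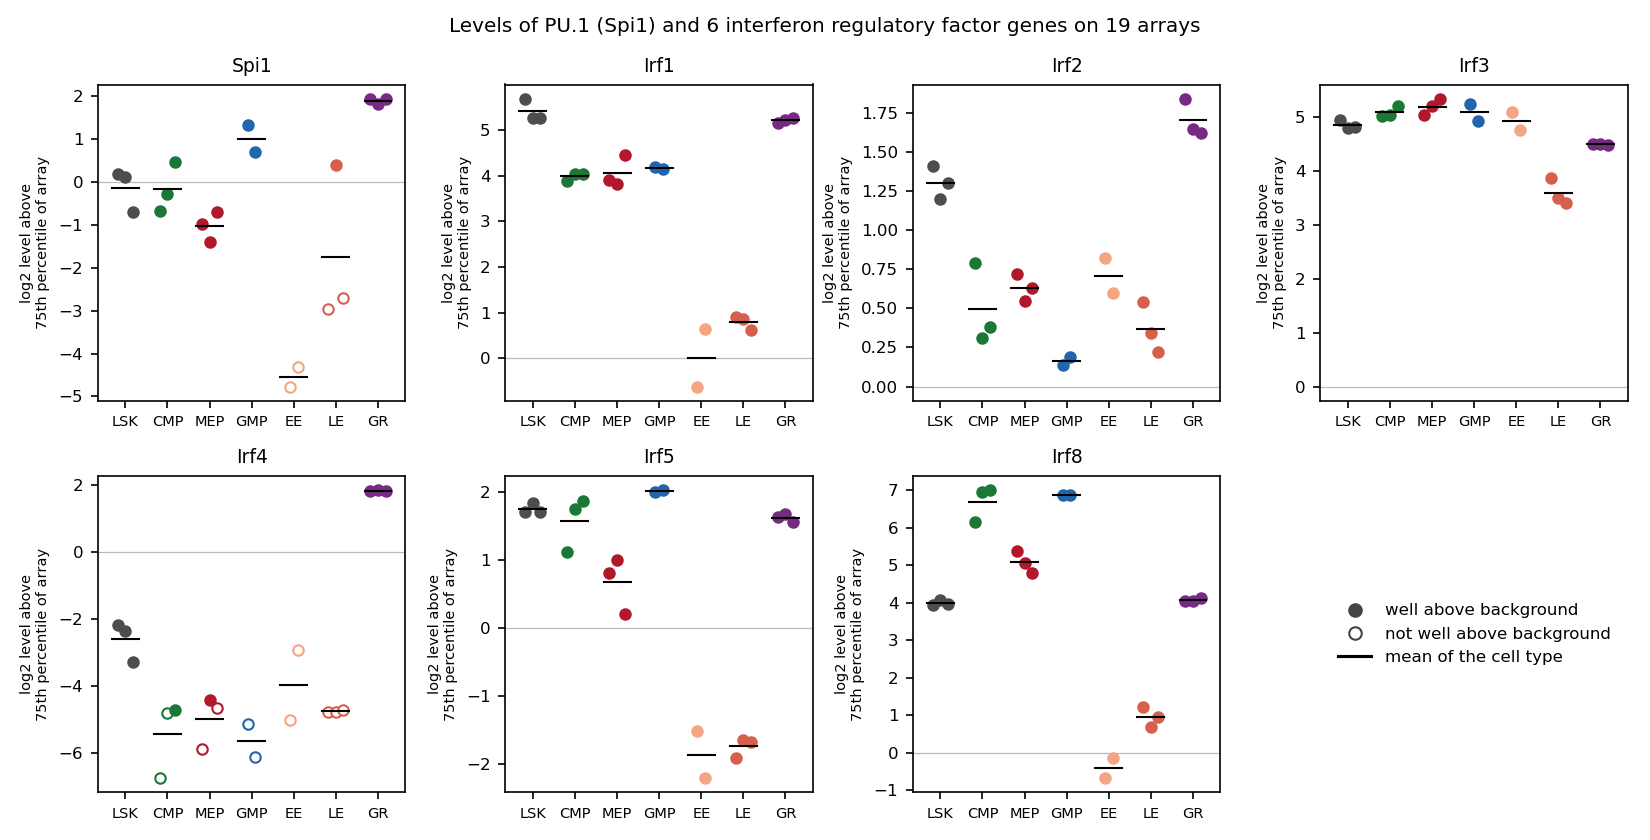
Log2 level (array's 75th percentile at 0; y axis, own scale in each panel) of the 7 genes on 19 arrays, by cell type (x axis); filled points are well above background, open points are not, and lines are means. Spi1, Irf1, Irf5 and Irf8 sit lowest in EE and LE, Irf4 is high in GR alone of the 7 populations (1.82 to 1.85), and the LE 2 array stands apart for Spi1 (0.40).

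Irf8 was highest in CMP and GMP and changed at almost every step. The LSK arrays read 3.94, 4.07 and 3.97, the CMP arrays 6.15, 6.95 and 7.00, the MEP arrays 5.39, 5.06 and 4.79, and the GMP arrays 6.87 and 6.89. Erythroblasts read -0.67 and -0.13 (EE) and 1.22, 0.70 and 0.95 (LE), and granulocytes 4.04, 4.06 and 4.12. CMP and GMP overlapped, as did LSK and GR, and every other pair of neighbours in the order GMP, CMP, MEP, GR, LSK, LE, EE was separated. From LSK to CMP, Irf8 rose by 2.70 ± 0.22 (6.52-fold; adjusted p = 4.2e-07), and by 2.98 and 3.06 on slides 3 and 4, which held both. It fell by 1.62 ± 0.22 from CMP to MEP (3.07-fold; adjusted p = 0.0015), where the within-slide differences were -0.76, -1.89 and -2.21. CMP 1, the lowest CMP array, is on the slide with the smallest of them. The MEP call was lost with spike-in scaling (-1.58, adjusted p = 0.54). GMP differed from CMP by 0.18 ± 0.25 (adjusted p = 0.73), and MEP lay below GMP by a log2 difference of -1.80 ± 0.25 (3.48-fold; adjusted p = 4.6e-05), which was -1.03 with spike-in scaling (adjusted p = 0.25).

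Along both mature paths Irf8 fell, further in red cells. It fell by 5.48 ± 0.25 (44.7-fold; adjusted p = 3.2e-11) from MEP to EE, and from GMP to GR by 2.80 ± 0.25 (6.98-fold; adjusted p = 1.5e-07). From EE to LE it rose by 1.36 ± 0.24 (2.57-fold; adjusted p = 0.00023), by 1.89 and 1.09 on slides 1 and 3. With spike-in scaling this last difference was 0.41 (adjusted p = 0.59). Beside it, macrophage markers summed to 2.56 to 2.71 on EE and 3.07 to 3.92 on LE arrays, and granulocyte markers to 6.62 to 8.48 and 8.9 to 9.02. Their part in the rise was not tested.

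Only 2 populations, LSK and GR, had Irf4 well above background on each of their arrays. The LSK arrays read -2.16, -2.36 and -3.27 (127.4, 62.25 and 48.32 intensity units) and the GR arrays 1.84, 1.85 and 1.82 (1556, 1493 and 1270 units). In CMP 1 of 3 arrays was above background and in MEP 1 of 3, with means of -5.43 and -4.99, and GMP, EE and LE had none. Irf4 was called lower in CMP than in LSK (adjusted p = 0.0014), but 2 of 3 CMP arrays were not well above background, so the log2 difference of the means, -2.83 ± 0.58, is not a measured size. In GMP it was at least 2.66-fold lower than in LSK (adjusted p = 0.0015). Of 8 B cell markers, 7 to 8 were well above background on LSK arrays, with sums of 3.96 to 4.31. It was 4 to 5 on CMP arrays (3.33 to 3.86) and 3 to 4 on GMP arrays (3.92 to 4.18). On MEP 2, the MEP array with Irf4 above background, it was 8. The part of B cells in these Irf4 levels was not tested. In granulocytes Irf4 stood at least 57.5-fold above GMP (adjusted p = 1.4e-07), the largest difference of the 7 genes between GMP and GR.

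The relatives of PU.1 that are known from B cells and from macrophages of the spleen were high on the same arrays. Spib was at 2.48 ± 0.10 (SD, n = 3) in GR and on none of the 2 GMP arrays well above background, at least 89.9-fold higher in GR (adjusted p = 2.7e-08). Spic was at 2.72 ± 0.08 in GR and at -2.74 and -4.34 on the GMP arrays, of which only the first was well above background (adjusted p of the difference = 1.4e-08). In B cells Irf4 is an established regulator. The B cell surface gene Ms4a1 read 2.48 ± 0.06 on GR arrays, and the macrophage complement gene C1qc 3.28 ± 0.07. Their part in the levels of Irf4, Spib and Spic was not tested. GMP and GR arrays share no slide, so no within-slide value exists for this comparison.

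Irf1 and Irf2 followed a course opposite to that of Irf8 in the progenitors, high in LSK and GR and lower between them. Irf1 read 5.68, 5.27 and 5.27 in LSK and 5.15, 5.21 and 5.26 in GR, against 3.89, 4.04 and 4.03 in CMP, 3.91, 3.82 and 4.46 in MEP and 4.19 and 4.15 in GMP. The 3 progenitor populations lay within each other's reach except that GMP stood just above CMP. Erythroblasts read -0.62 and 0.64 (EE) and 0.91, 0.85 and 0.62 (LE). Irf2 read 1.41, 1.20 and 1.30 in LSK, 0.79, 0.31 and 0.38 in CMP, 0.72, 0.55 and 0.63 in MEP, and 0.14 and 0.19 in GMP. In EE it read 0.82 and 0.60, in LE 0.54, 0.34 and 0.22, and in GR 1.84, 1.65 and 1.62. So the Irf2 levels of erythroblasts overlapped those of CMP and MEP, whereas for Irf1 every erythroblast array lay below every other array.

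From LSK to CMP, Irf1 fell by 1.42 ± 0.25 (2.68-fold; adjusted p = 0.00041) and Irf2 by 0.81 ± 0.14 (1.75-fold; adjusted p = 3e-04). From LSK to GMP they fell by 1.23 ± 0.28 (adjusted p = 0.0023) and 1.14 ± 0.15 (adjusted p = 2.8e-05). None of these 4 calls held with spike-in scaling, where CMP minus LSK was -1.07 for Irf1 and -0.46 for Irf2 (adjusted p = 0.23 and 0.57) and GMP minus LSK -1.61 and -1.51 (0.065 and 0.081). Within slides 3 and 4, CMP minus LSK was -1.24 and -1.65 for Irf1 and -0.99 and -1.03 for Irf2. Beside these falls, granulocyte markers summed to 8.27 to 8.64 on LSK, 5.02 to 5.91 on CMP and 8.15 to 8.63 on GMP arrays. Their part in the falls was not tested. From GMP to GR, Irf2 rose by 1.54 ± 0.15 (2.90-fold; adjusted p = 5.1e-07) and Irf1 by 1.03 ± 0.28 (2.05-fold; adjusted p = 0.0044). The Irf1 call was lost with spike-in scaling (1.38, adjusted p = 0.071). With the slide as a block the Irf1 rise was 0.95. Slide 5 held only GR 2 and GR 3, so that value rests on GR 1 alone of the GR arrays. From MEP to EE, Irf1 fell by 4.05 ± 0.28 (16.6-fold; adjusted p = 3.5e-09), while Irf2 differed by 0.07 ± 0.15 (adjusted p = 0.67). With spike-in scaling, which follows added RNA in place of the 75th percentile, Irf2 also fell, to a log2 difference of -3.44 (adjusted p = 2.8e-07).

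Smaller differences of this pair were less firm. Irf2 was higher in MEP than in GMP by 0.47 ± 0.15 (adjusted p = 0.027), and 0.37 with the slide as a block (adjusted p = 0.077). That call was also lost without MEP 1, MEP 3, GMP 1 or GMP 2 (adjusted p up to 0.14), and slide 3 gave 0.36. Irf1 was higher in LE than in EE by 0.78 ± 0.28 (adjusted p = 0.024), but by 1.53 on slide 1 and by -0.02 on slide 3. Without EE 1 the Irf1 difference was 0.15 (adjusted p = 0.60), the call was lost without LE 1 or LE 2 too (0.062 and 0.053), and the slide as a block gave 0.68 (adjusted p = 0.061). Irf2 differed by -0.34 ± 0.15 between LE and EE (adjusted p = 0.062). It passed with the slide as a block (-0.36, adjusted p = 0.029) and with the series values (-0.38, 0.035), and was at 0.01 with the percentile over detected probes.

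Irf3 varied least over the 7 populations together with Irf2, with ranges of the means of 1.59 and 1.54. Its LSK arrays read 4.94, 4.79 and 4.81, CMP 5.01, 5.04 and 5.20, MEP 5.03, 5.19 and 5.33, and GMP 5.24 and 4.92. In EE it read 5.09 and 4.75, in LE 3.87, 3.50 and 3.41, and in GR 4.50, 4.50 and 4.47. MEP, CMP, GMP, EE and LSK overlapped as neighbours in that order, and GR and LE were separated below them. From EE to LE, Irf3 fell by 1.32 ± 0.16 (2.50-fold; adjusted p = 5.1e-06), by 1.21 and 1.34 on slides 1 and 3. From GMP to GR it fell by 0.59 ± 0.16 (1.5-fold; adjusted p = 0.0043). This call was lost with spike-in scaling (-0.25, adjusted p = 0.77) and with the percentile over detected probes (-0.29, adjusted p = 0.1). The fall was only 0.33 with the slide as a block, which rests on GR 1 alone of the GR arrays. It was 0.43 without GMP 1, which leaves 1 GMP array.

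Irf5, like Spi1, separated GMP from MEP and was low in erythroblasts. LSK read 1.71, 1.83 and 1.70, CMP 1.11, 1.74 and 1.86, MEP 0.81, 1.0 and 0.20, and GMP 2.0 and 2.02. Granulocytes read 1.63, 1.67 and 1.55, while EE read -1.51 and -2.20 and LE -1.90, -1.64 and -1.67. GMP lay above LSK and LSK above GR with no overlap, while GR overlapped CMP and EE overlapped LE. Irf5 was lower in MEP than in GMP (-1.34 ± 0.25, 2.53-fold; adjusted p = 0.00072; -1.02 on slide 3; -0.58 with spike-in scaling, adjusted p = 0.48) and fell by 2.53 ± 0.25 from MEP to EE (5.77-fold; adjusted p = 2.3e-07). MEP minus CMP was -0.90 ± 0.22 (adjusted p = 0.035), and -0.30, -0.75 and -1.66 on slides 2, 3 and 4. It lost the threshold with the slide as a block (adjusted p = 0.069). Its call was also lost without CMP 2, CMP 3 or MEP 3, and without any of the GR arrays, with adjusted p up to 0.19.

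**Figure D3:**
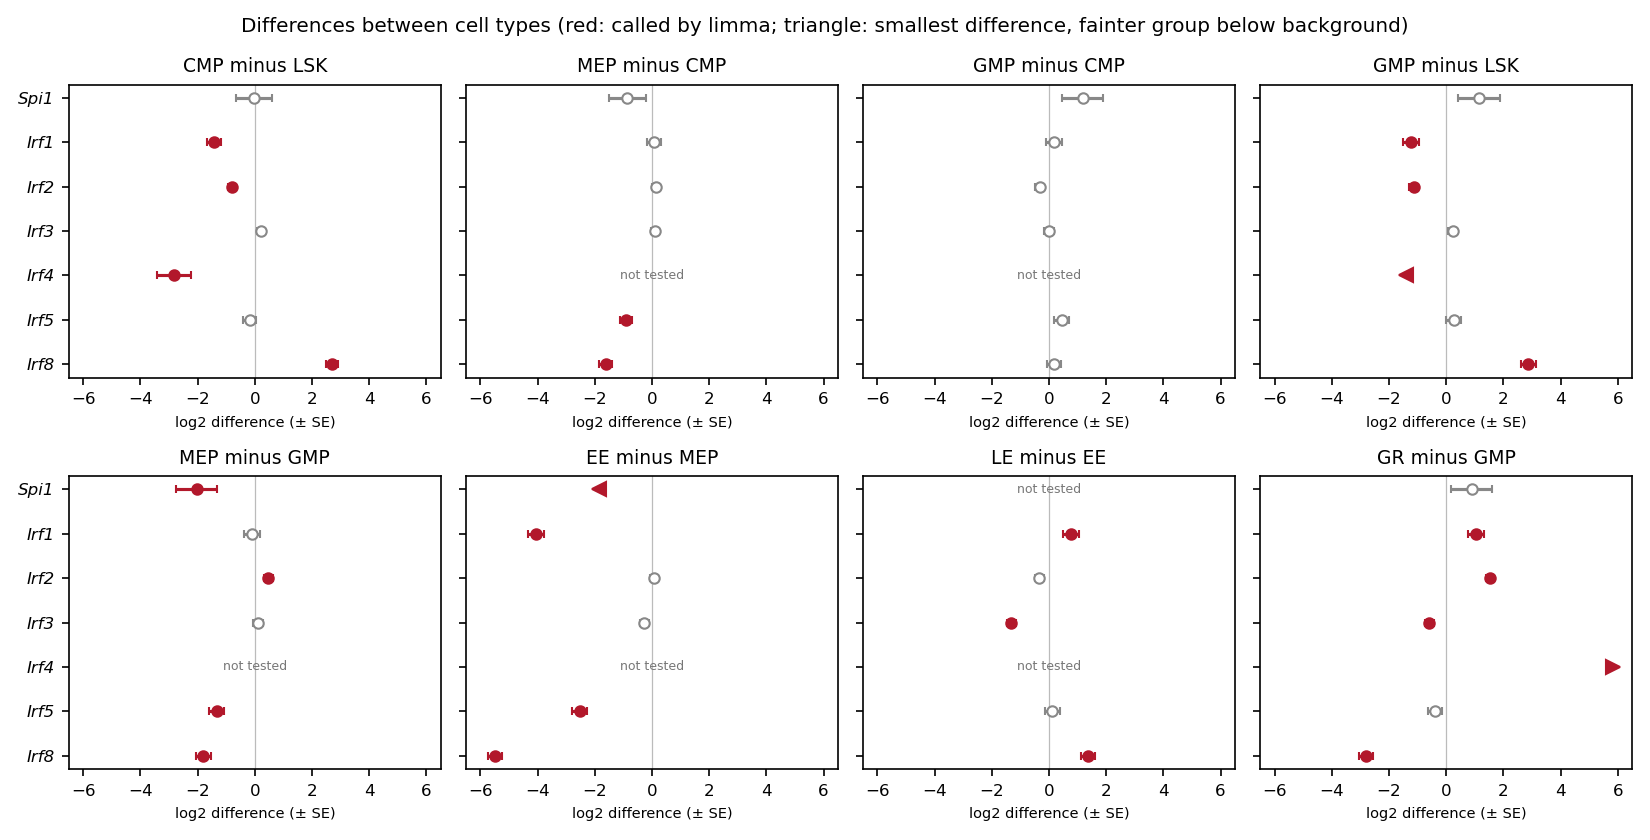
Log2 difference between cell types (x axis, bars are SE of the limma fit) for the 7 genes (y axis) in 8 comparisons; red points were called, open grey points were not, and triangles are smallest differences where the fainter group was not well above background. Irf8 moved up by 2.70 from LSK to CMP where Irf1 and Irf2 moved down by 1.42 and 0.81.

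In CMP minus LSK, 1 of 7 was higher and 3 were lower, where limma called 23.2% of all tested features higher and 13.5% lower. The median difference was -0.18 over the 7 genes and 0.17 over all features. In GMP minus LSK, again 1 of 7 was higher and 3 were lower (27.7% and 16.1% of all features), with medians of 0.23 and 0.22, and without LE 2 Spi1 made it 5 genes. With spike-in scaling the count was 2 in each, Irf8 and Irf4. Of all calls in CMP minus LSK, 63.3% were higher, 46% with spike-in scaling, 51.2% with quantile normalization and 31.8% when the percentile was taken over detected probes alone. In GMP minus LSK these shares were 63.3%, 15.9%, 47.6% and 27.5%.

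Between GMP and CMP, limma called 0 of the 6 genes tested, where 9.5% of all features were higher in GMP and 8.49% lower. At an unadjusted p under 0.05 there was 1, Irf2, at -0.33 ± 0.15 (limma adjusted p = 0.17). Without LE 2 Spi1 was called. MEP had 0 genes higher and 2 of 6 lower than CMP, Irf5 and Irf8, where only 1.91% of all features were higher and 2.6% lower. Against GMP, MEP had 1 of 6 higher (Irf2) and 3 lower (Spi1, Irf5 and Irf8), and all features 13.7% and 18.3%. The median of the 6 was -0.39 in MEP minus CMP (all features -0.03) and -0.73 in MEP minus GMP (-0.06). These comparisons share their MEP or GMP arrays. Fitted on the CMP and MEP arrays alone, limma called 0 features, and Irf8 had an adjusted p of 0.084. Higher calls made up 42.4% of all calls in MEP minus CMP and 62.8% with the percentile over detected probes. In GMP minus CMP it was 52.8%, and 15.4% with spike-in scaling, 41.9% with quantile normalization, 35% by detected probes and 62.6% with normexp background correction. In MEP minus GMP it was 42.9%, and 82.2% with spike-in scaling, 55.1% with quantile normalization and 66.7% by detected probes.

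In the mature cells the 7 genes parted. From MEP to EE, 4 of 6 tested fell, Spi1, Irf1, Irf5 and Irf8, and 0 rose, where 43.6% of all features rose and 37.8% fell. The median difference of the 6 was -3.02, against 0.22 over all features. Irf3, at -0.27 and uncalled, was called lower with the slide as a block (-0.40, adjusted p = 0.02), normexp (-0.91, 9.5e-06), quantile normalization (-0.68, 0.00045) and the percentile over detected probes (-0.45, 0.012). With spike-in scaling all 6 fell, where limma called 18254 of 22770 features lower. With normexp background correction the Spi1 difference was -0.16 (adjusted p = 0.61). From EE to LE, Irf1 and Irf8 rose and Irf3 fell, of 5 tested (22.1% and 37.8% of all features). From GMP to GR, Irf1, Irf2 and Irf4 rose and Irf3 and Irf8 fell, of 7 tested (27.7% and 38.8%), with 3 called with the slide as a block. Shares of calls that were higher were 53.6% in EE minus MEP (3.2% with spike-in scaling), 36.9% in LE minus EE (54.7% with the percentile over detected probes and 2.52% with spike-in scaling) and 41.7% in GR minus GMP (52.6% and 64%). The median over all features in EE minus MEP was 0.224, and -3.285 with spike-in scaling. It moved from 0.214 to -4.593 in the interaction below.

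Whether the change from progenitor to mature cell differed between the red and the granulocytic path was tested as (LE minus MEP) minus (GR minus GMP). The 5 genes that could be tested, being well above background in all 4 populations, were all below 0, where 42.4% of all features were called above 0 and 35.8% below. The values were -4.30 ± 0.36 for Irf1 (adjusted p = 3.7e-08), -1.80 ± 0.20 for Irf2 (adjusted p = 6.3e-07), -1 ± 0.20 for Irf3 (adjusted p = 0.00036), -2.02 ± 0.33 for Irf5 (adjusted p = 4.3e-05) and -1.32 ± 0.32 for Irf8 (adjusted p = 0.0016). The Irf1 mean went from 4.06 in MEP to 0.79 in LE and from 4.17 in GMP to 5.21 in GR. The Irf8 mean was lower in the mature cells of both paths, 0.96 against 5.08 and 4.07 against 6.88. Spi1 and Irf4 were not tested. Of all calls 54.2% were above 0, and 0.573% with spike-in scaling. Over the 7 populations as a whole, the moderated F test called 7 of 7 genes and 95.6% of all features.

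Irf7 and Irf9, further interferon regulatory factors on the array, took another course. Irf7, the amplifier of type I interferon production, had means of 0.43 in LSK, -1.40 in CMP, -0.96 in MEP and -2.74 in GMP, then 2.45 in EE, 2.71 in LE and 1.28 in GR. Irf9, the DNA-binding part of the interferon-activated complex ISGF3, had 3.80, 3.32, 3.52, 2.81, 5.49, 5.88 and 3.79 in the same order. From MEP to EE, Irf7 rose by 3.41 ± 0.21 (adjusted p = 7.8e-10) and Irf9 by 1.97 ± 0.10 (adjusted p = 1.9e-10), while Irf1, Irf5 and Irf8 fell. With spike-in scaling these differences were -0.10 and -1.54, so that the rise holds relative to other transcripts only. Both were lower in GMP than in LSK (log2 differences of -3.17 ± 0.21 for Irf7 and -0.99 ± 0.11 for Irf9), and rose from GMP to GR, by 4.03 ± 0.21 and 0.98 ± 0.10.

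**Figure D4:**
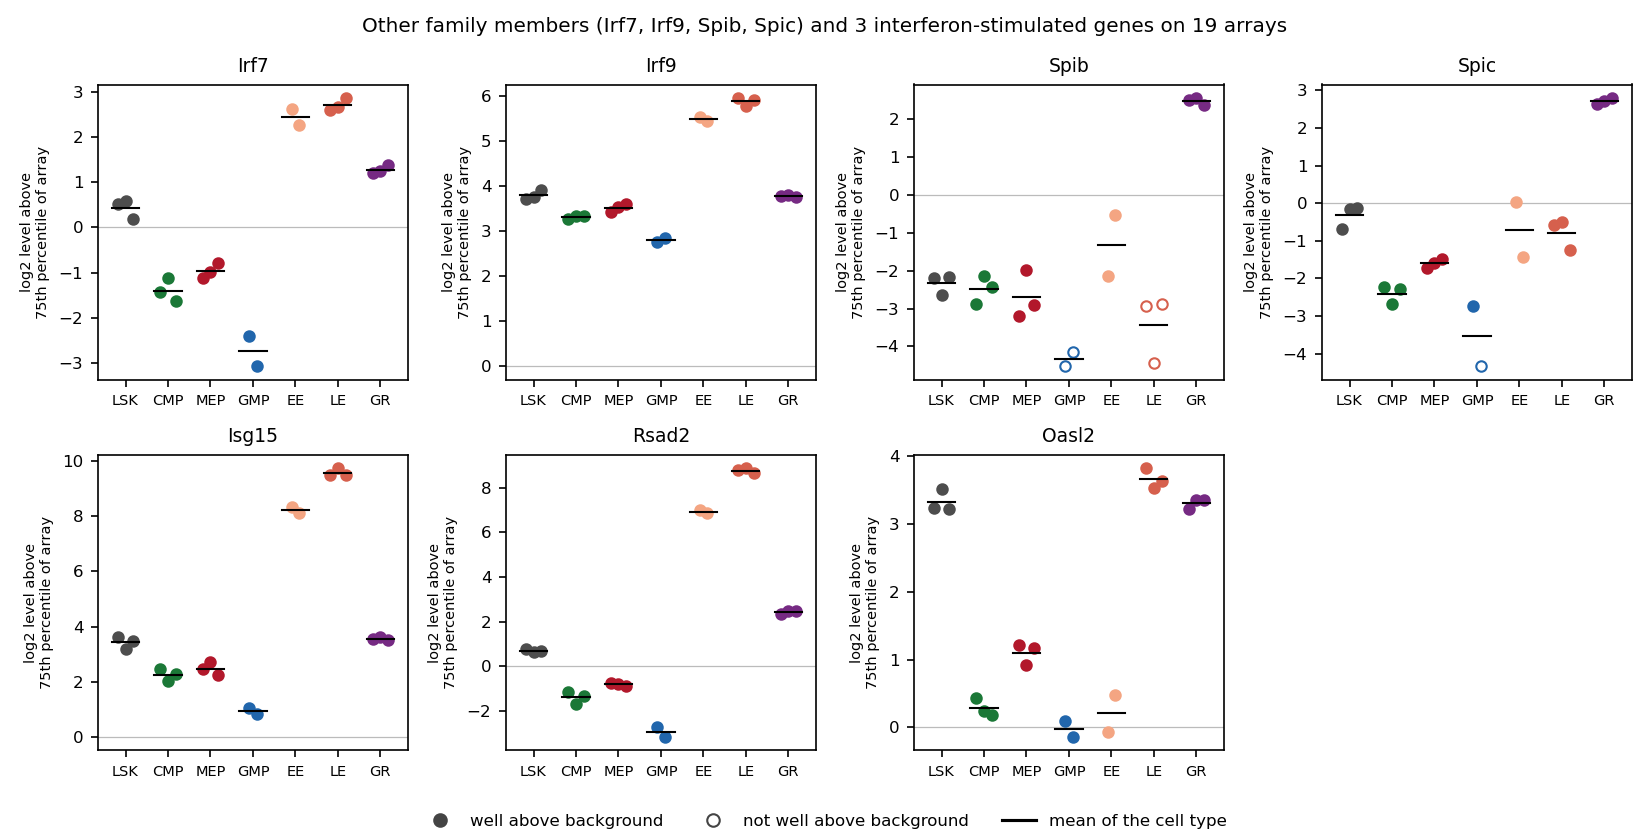
Log2 level (array's 75th percentile at 0; y axis, own scale in each panel) for Irf7, Irf9, Spib, Spic and the interferon-stimulated genes Isg15, Rsad2 and Oasl2 on 19 arrays by cell type (x axis); open points are not well above background and lines are means. Irf7, Irf9, Isg15 and Rsad2 are highest in LE (means 2.71, 5.88, 9.58 and 8.77), and Spib and Spic in GR (2.48 and 2.72).

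Genes known to be induced by interferon through these factors fell from LSK to the progenitors together with Irf1, Irf2, Irf7 and Irf9. Of 26 listed, 24 were matched to the array and tested. In CMP 15 were lower and 0 higher, where 13.5% and 23.2% of all features were (median -1.12, all features 0.17). In GMP 16 were lower and 1 higher, where 16.1% and 27.7% of all features were (median -1.59, all features 0.22). Against LSK, CMP had lower Oas2, an antiviral synthetase (-3.65 ± 0.21), Ifi44 (-3.26 ± 0.37) and Oasl2 (-3.04 ± 0.15), with adjusted p of at most 8.6e-06. With spike-in scaling 8 of 24 were lower in CMP and 12 in GMP. Of all features, limma then called 936 of 24177 and 2429 of 23682 lower. MEP were above CMP for 7 of 23 and below for 1 (1.91% and 2.6% of all features). They were above GMP for 11 of 23 and below for 1 (13.7% and 18.3%). In MEP minus CMP limma called 28 features with spike-in scaling, without Oasl2 and Rsad2, and 0 on the compared arrays alone. In granulocytes 14 of 24 were higher than in GMP and 4 lower, where 27.7% and 38.8% of all features were (median 0.92, all features -0.19). Rsad2, the antiviral enzyme viperin, rose by 5.37 ± 0.15 and Rtp4 by 4.88 ± 0.18. Erythroblast markers, which summed to 3.27 to 3.54 on GMP arrays, summed to 8.14 to 8.28 on GR arrays, and Rsad2 had its highest means in EE and LE (6.93 and 8.77). The part of erythroblast RNA in these rises was not tested.

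Between MEP and EE, 8 of 23 interferon-stimulated genes rose and 12 fell, where 43.6% of all features rose and 37.8% fell (median -0.66, all features 0.22). Rsad2 rose by 7.73 ± 0.15 (adjusted p = 4.1e-14) and Isg15, a ubiquitin-like protein, by 5.76 ± 0.17 (adjusted p = 6.3e-13). These 2 also rose with spike-in scaling, by 4.23 and 2.26. Among those that fell, the difference was -5.70 ± 0.30 for the immunoproteasome gene Psmb8, a known target of Irf1. From EE to LE 13 of 22 rose and 2 fell (22.1% and 37.8% of all features), and Oasl2 rose by 3.45 ± 0.17. With spike-in scaling 2 rose and 3 fell there, where limma called 216 of 19134 features higher and 8368 lower.

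Of 18 receptor and signalling genes of the interferon pathway, 1 was higher and 2 were lower in CMP than in LSK (23.2% and 13.5% of all features). In GMP 6 were higher and 2 lower than in LSK (27.7% and 16.1%), and in MEP 4 were higher and 6 lower than in GMP (13.7% and 18.3%). Ikbke, a kinase that phosphorylates Irf3, was 2.13 ± 0.38 higher in GMP than in CMP (adjusted p = 0.00088). In EE minus MEP, 8 were higher and 9 lower (43.6% and 37.8%). Among those that fell, the difference was -4.38 ± 0.27 for Sting1, the DNA-sensing adaptor upstream of Irf3. It was -3.85 ± 0.43 for the interferon gamma receptor gene Ifngr1 and -3.18 ± 0.33 for the kinase gene Tyk2. From GMP to GR 4 rose and 4 fell (27.7% and 38.8%). Among them Sting1 and Mavs, an adaptor of RNA sensing, fell by 2.19 ± 0.27 and 1.84 ± 0.15.

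Myeloid genes known as PU.1 targets were lower in MEP than in GMP, as Spi1 was by a call that several alternatives lost. Of 21 tested, 16 were lower in MEP than in GMP and 0 higher, where 18.3% and 13.7% of all features were (median -2.48, all features -0.06). The elastase gene Elane had a difference of -5.28 ± 0.37, the Fc receptor gene Fcgr3, whose protein is part of the CD16/32 gate, -5.26 ± 0.37, and Cybb, the catalytic subunit of the phagocyte oxidase, -4.65 ± 0.40 (above background on 2 of 3 MEP arrays). With spike-in scaling 12 of 21 were lower, where limma called 534 of 21930 features lower. GMP were above CMP for 13 of 21 and below for 0 (9.5% and 8.49% of all features). With spike-in scaling 4 were above, where limma called 255 of 22810 features higher. MEP were below CMP for 9 of 21 and above for 0 (2.6% and 1.91%), and spike-in scaling gave 0 in either direction. In MEP minus CMP, Csf1r, the receptor for macrophage colony-stimulating factor, fell by 2.02 ± 0.26 and Tyrobp, a signalling adaptor, by 1.92 ± 0.34. In GMP minus CMP, Spi1 itself missed the threshold with all arrays in the fit.

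In EE, 13 of 19 PU.1 targets tested were lower than in MEP and 1 higher, Csf3r (median -1.27, all features 0.22). Of all features 37.8% were lower there and 43.6% higher. Btk, a kinase of B cells and myeloid cells, was at -4.17 ± 0.19, and the receptor gene Csf2ra at -3.69 ± 0.29. From EE to LE 14 of 17 rose and 0 fell (22.1% and 37.8% of all features), with Ncf4, an oxidase subunit, up by 1.71 ± 0.27 and Fcer1g up by 1.58 ± 0.29. No member of the list was called there with spike-in scaling, where limma still called 8584 of all features. Granulocyte markers moved with this rise (6.62 to 8.48 on EE and 8.9 to 9.02 on LE arrays), and their part was not tested. From GMP to GR 14 of 21 rose and 1 fell, where 27.7% and 38.8% of all features did (median 1.92, all features -0.19). Among them Cd33, a sialic acid receptor, rose by 5.84 ± 0.42, and the endotoxin coreceptor gene Cd14 by 4.63 ± 0.45.

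**Figure D5:**
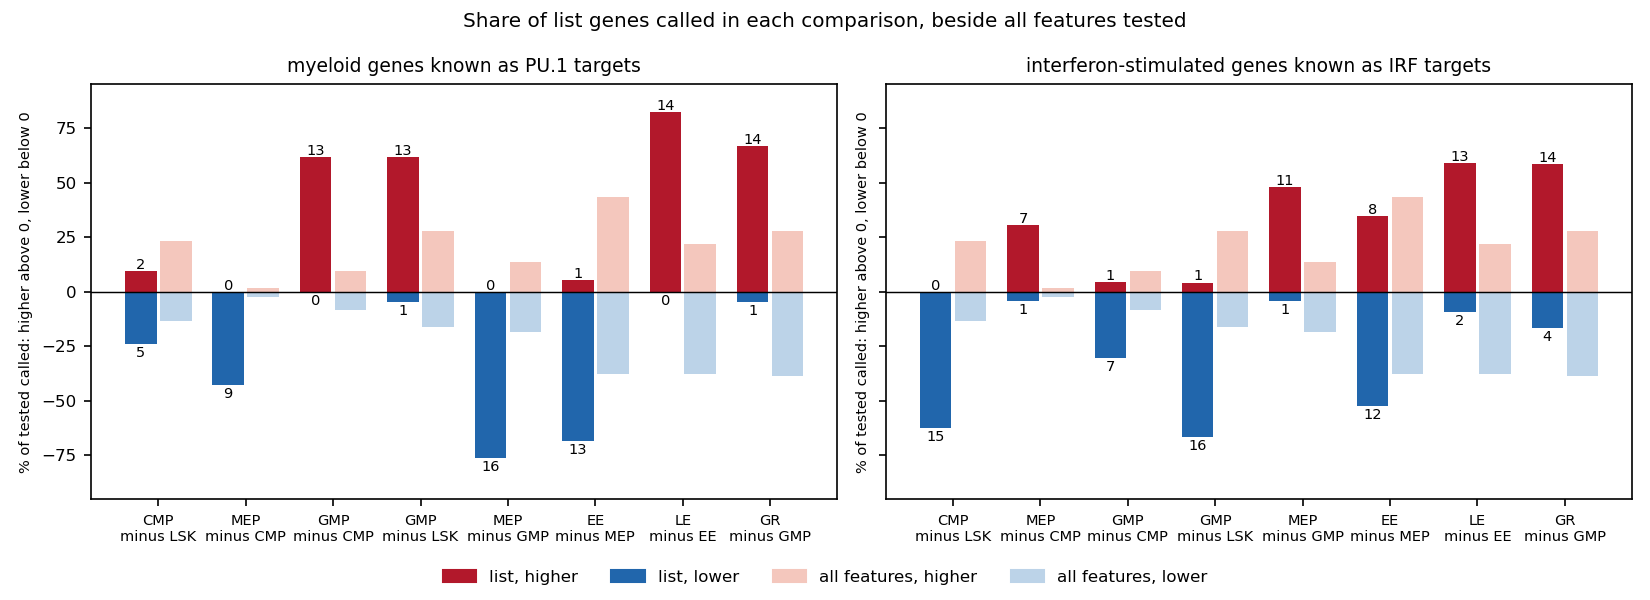
Percent of tested genes called higher (above 0) or lower (below 0) in each of 8 comparisons (x axis) for 21 myeloid genes known as PU.1 targets and 24 interferon-stimulated genes, beside all features tested (pale bars); numbers on the bars are genes. PU.1 targets are lower for 16 of 21 in MEP minus GMP (18.3% of all features). Interferon-stimulated genes are lower for 15 of 24 in CMP minus LSK (13.5% of all features).

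Partners and opponents of PU.1 set the progenitors apart. In MEP minus GMP, Gata1 was higher (4.67 ± 0.22), while Cebpe, a granulocytic factor, was lower (-5.25 ± 0.41) and Gfi1, a repressor of monocytic genes, as well (-3.90 ± 0.26). Of 14 such genes, 7 were higher and 5 lower there (13.7% and 18.3% of all features). In CMP, where Spi1 was within the error of LSK, Gata1 was 3.55 ± 0.19 higher than in LSK on the log2 scale (adjusted p = 8.9e-09). Between MEP and EE 12 of 14 fell and 2 rose, where 37.8% of all features fell and 43.6% rose. With spike-in scaling all 14 fell, where limma called 18254 of 22770 features lower.

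Among 13 monocyte and dendritic cell genes tied to Irf8 and Irf4, several differed in the same comparisons as Irf8. Ly86, a partner of a toll-like receptor relative, and Cx3cr1, the fractalkine receptor of monocytes, were higher in CMP than in LSK by 3.29 ± 0.26 and 2.49 ± 0.23. In MEP minus CMP they were at -2.10 ± 0.25 and -1.98 ± 0.23, and in GR minus GMP at -2.54 ± 0.29 and -1.70 ± 0.26, each with an adjusted p of at most 0.00086. The list as a whole was mixed. It had 3 higher and 1 lower in CMP than in LSK (23.2% and 13.5% of all features). In MEP minus CMP it had 0 and 3 (1.91% and 2.6%), and in GR minus GMP 4 and 4 (27.7% and 38.8%). Cd74 and H2-Aa, genes of antigen presentation by MHC class II, ran the other way in GR, with rises of 5.66 ± 0.38 and 5.22 ± 0.64, on the arrays with B cell and macrophage markers. In EE minus MEP 12 of 13 fell and 1 rose (37.8% and 43.6% of all features). The 1 that rose was Siglech (named after its value was seen), whose probe was bright in every population.

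The features most like each gene over the 19 arrays were found by Pearson's r among 15027 named features, as a description, since arrays of a cell type and the gap between erythroblasts and the rest raise all such values. Over the 14 arrays without erythroblasts the value is given second. For Irf8 they were Tmem229b (0.989 and 0.960), Hmga1, Ccl9, Lgals1 and Gusb, and for Irf1 Gm4907 (0.996 and 0.957), Zfp608, Gpr132, Nceh1 and Stat4. Irf2 was nearest to B2m (0.945 and 0.972), Maf, Ifitm3, Ankrd33b and Rhof. Among these, B2m and Ifitm3 are known to respond to interferon. Irf4 was nearest to Cd83 (0.968 and 0.973), Fosl1, Adam8, Thbs1 and Gpat3, all with their highest mean in GR. For Spi1 they were Arhgap31 (0.960 and 0.913), Slc38a6, Atp8a2, Rhob and Nrg4, for Irf3 Rfc2 (0.981 and 0.954), Vps16, Rps27, Lcmt2 and Tmem222, and for Irf5 Ptger2 (0.981 and 0.814), Btla, Endou, Zhx3 and Mitf. The drop for Irf5 is the largest of the 7 first-placed features.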

How the data were processed

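Total RNA of the 19 samples was hybridised to a custom Agilent array, 1 array a sample. Per the file headers, the authors used protocol GE1_1105_Oct12 of Agilent's Feature Extraction software, version 11.5.1.1, and deposited a background-subtracted signal intensity in 1 green channel, although the labels name the dye Cy5. The deposited series values equal the background-subtracted scanner intensity.

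Levels are log2 of the processed signal minus the 75th percentile of its array, with spots of a probe averaged and control spots left out (1319 of 62543). A floor of -7 was applied only in the alternative that used the series values. Of 55681 catalogue probes, 27235 were named through RefSeq accessions (GRCm38.p6 gene list), and the brightest probe stood for a gene. Cell types were compared with limma 3.58.1 in R 4.3.3, fitted to all arrays together, with Benjamini-Hochberg adjustment over all tested features and a threshold of 0.05. The test took in features with a signal well above background throughout 1 or more of the groups compared, and a call needed such a signal in the higher group. Fold bounds use, on each array of the fainter group, the higher of the lowest detected signal and the probe's own. All tests are two-sided. The number of arrays limits the precision.

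Alternatives were normexp background correction (on median signals, with an offset of 50), quantile normalization, the percentile over 18787 probes detected on all arrays, scaling to 7 spike-in probes, all probes of a gene averaged, no filter, the slide (5 in all) or replicate number as a block, the series values, the compared arrays alone, and each array left out. Genes named beside the 7 were among the 6 largest called differences of a list in a comparison, or the 5 features nearest by Pearson's r. The 7 genes and the lists were chosen with earlier results of these data known. The scripts were tested on simulated data. Promoter windows are the 250 bases before RefSeq gene starts. Results for some genes of the lists are not reported here.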

Additional observations from a re-analysis of the deposited data

Results flagged for a closer look

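The change from progenitor to mature cell differed between the red path (LE minus MEP) and the granulocytic path (GR minus GMP) by an interaction term of the limma fit for 5 of the 7 genes. The difference of the differences was -4.3 for Irf1, -1.8 for Irf2, -1 for Irf3, -2.02 for Irf5 and -1.32 for Irf8. All 5 were also called below 0 with spike-in scaling, where limma called 13884 of 15038 features below 0.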

How the results depend on the processing

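Of 62 values for the 7 genes, between 37 (spike-in scaling) and 60 (the series values) kept their direction and their side of the threshold under each alternative fitted to all groups, and 48 of 55 did so on the compared arrays alone. The only called value to turn was Irf1 in LE minus EE, -0.17 with spike-in scaling. Uncalled values turned with spike-in scaling for Spi1 (0.32) and Irf5 (0.17) in CMP minus LSK, Irf1 (-0.54), Irf5 (-0.28) and Irf8 (-0.55) in GMP minus CMP, Irf3 (-0.14) and Irf5 (-0.11) in GMP minus LSK, Irf1 (0.65) in MEP minus GMP, Irf2 (-3.44) in EE minus MEP and Irf5 (-0.84) in LE minus EE. With quantile normalization Irf3 turned in CMP minus LSK (-0.19) and GMP minus LSK (-0.39), Irf8 in GMP minus CMP (-0.04) and Irf1 in MEP minus GMP (0.16). With the percentile over detected probes Irf3 turned in CMP minus LSK (-0.10) and GMP minus LSK (-0.25), Irf5 in GMP minus LSK (-0.22), Irf1 in MEP minus GMP (0.15), and Irf2 in EE minus MEP (-0.11) and LE minus EE (0.01). With normexp Irf1 turned in MEP minus GMP (0.00) and Irf2 in EE minus MEP (-0.09), and with all probes averaged Irf1 turned in GMP minus CMP (-0.13) and MEP minus GMP (0.56). With spike-in scaling, genes called of the 7 and features called were 2 and 1732 in CMP minus LSK, 0 and 28 in MEP minus CMP, 2 and 2888 in GMP minus LSK, 0 and 2992 in MEP minus GMP, and 3 and 6650 in GR minus GMP; LE minus EE had 1 gene and GMP minus CMP 1659 features. In MEP minus CMP, 1 of the 7 genes was called with no filter, quantile normalization, the slide as a block, or the percentile over detected probes, and 0 on the compared arrays alone; features called were 1985 with normexp, 546 with no filter, 669 with the series values and 0 on the compared arrays alone, against 1031. In GMP minus CMP 1 gene was called with normexp and with the percentile over detected probes. No filter gave 2 genes in MEP minus GMP and 26979 features in the interaction, and the slide as a block gave 3 genes in GR minus GMP. In the slide fit, GR minus GMP rests on GR 1 alone of the GR arrays. The cause of the changes under these alternatives was not tested. Leaving out each array in turn gave 1 to 2 genes and 294 to 1299 features in MEP minus CMP, 0 to 1 genes in GMP minus CMP and 2 to 4 genes in MEP minus GMP. It turned Spi1 (-0.35 to 0.22) and Irf5 (-0.32 to 0.06) in CMP minus LSK, Irf1 (-0.12 to 0.20) in MEP minus CMP, Irf3 (-0.16 to 0.16) and Irf8 (-0.10 to 0.33) in GMP minus CMP, Irf1 (-0.31 to 0.01) and Irf3 (-0.06 to 0.27) in MEP minus GMP, Irf2 (-0.04 to 0.18) in EE minus MEP and Irf5 (-0.22 to 0.46) in LE minus EE.

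Replicate numbers are shared by the groups without a stated pairing, and the deviations of same-numbered arrays from their group means correlated from -0.52 (CMP and LSK, number 3) to 0.48 (GMP and CMP, number 2, on the same slide). In no comparison with 3 shared numbers was every correlation over 0.1 (-0.46, -0.24 and -0.52 for CMP and LSK, and 0.24, -0.02 and 0.41 for MEP and CMP, whose same-numbered arrays share a slide), so the numbers were not taken as pairs. With the replicate block, 1 gene was called in MEP minus CMP (Irf5 had an adjusted p of 0.059), Spi1 in MEP minus GMP was at -1.99 (adjusted p = 0.065), Irf2 in LE minus EE passed (-0.31, adjusted p = 0.042) and Irf3 in GMP minus CMP stayed at 0.00 with its sign turned. Dim arrays limit the erythroblast values: the lowest detected level was -2.93 to -2.54 there and -5.81 to -3.77 elsewhere.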
